A study of Mus musculus with 6 samples.

Results

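Voltage-gated sodium channels, voltage-gated calcium channels and HCN channels are described here across 6 RNA-seq libraries of mouse brain after stroke. The genes were chosen by symbol and not by any measured value: protein-coding genes named as sodium channel pore or beta subunits (Scn, a number, then a or b), as calcium channel pore, alpha2delta or beta subunits (Cacna, Cacnb1 to Cacnb4), or as Hcn with a number. The rule took 35 of the 56748 genes in the deposited table and left out Scn4b, which is given further down among the partner genes. Of the 35 genes, 33 passed the filter on low counts and were tested, and Scn4a and Scn11a did not pass it.

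Every mouse was a male wild-type C57 animal in which light of 532 nm (250 mW, 5 minutes) clotted vessels of the left hemisphere after an intravenous agent that the labels do not name, and at 2 hours each received a tail vein injection of 100 µL. The injection was saline in 3 libraries and PLEA nanoparticles in the other 3, and all libraries carry the label day 3. The series describes the tissue as infarcted cortex, the labels as brain, and no unlesioned tissue or uninjected group was analysed here. Whether libraries of 1 group are from different mice is not stated, and p-values then reflect only the scatter between these libraries, part of which may be technical.

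Sodium channel pore subunits open on depolarisation and carry the upstroke of the action potential, and their beta subunits tune gating and hold the pore at the axon initial segment. Calcium channel pore subunits admit the calcium that triggers transmitter release (P/Q, N and R type), couples activity to transcription (L type) or drives burst firing (T type), while alpha2delta and beta subunits bring the pore to the membrane. HCN channels open on hyperpolarisation, pass a mixed cation current and set resting potential and rhythm in cortical, thalamic and other neurons.

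Library totals ranged from 16810448 to 17516434 counts, and the 35 genes took 0.433% of the counts in saline replicate 1 and 0.490% to 0.509% in the other 5 libraries. Markers of neurons were present in all libraries: summed over 8 genes they reached 6078 to 7342 CPM (the count per 1000000 counts of the library, with TMM-scaled totals) in saline and 6099 to 7694 CPM after PLEA. Excitatory neuron markers, 6 genes, summed to 2792 to 5241 CPM after saline and 3539 to 4914 CPM after PLEA. None of the marker genes listed for neurons, excitatory neurons, striatum or thalamus was at 0 in all libraries. Saline replicate 2 stood apart in regional markers, with the lowest level of 9 of 9 striatal genes and the highest level of 4 of 5 thalamic genes. It was also highest for 6 of 6 oligodendrocyte genes, which summed to 5428 CPM there and to 2774 to 3877 CPM in the other 5 libraries. Saline replicate 1 had the highest level of 6 of 6 microglial, 6 of 6 astrocyte and 5 of 5 endothelial genes. It also had the largest mitochondrial share, 7.01% of counts against 4.03% to 5.61% elsewhere. PLEA replicate 2 had the lowest level of 6 of 6 microglial, 5 of 6 astrocyte, 4 of 5 endothelial and 4 of 6 oligodendrocyte genes. Choroid plexus and ependymal markers, 5 genes, summed to 317 CPM in PLEA replicate 3 and to 6.75 to 21.3 CPM elsewhere.

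In edgeR's test no channel gene differed between PLEA and saline (0 higher and 0 lower of 33, Benjamini-Hochberg adjusted over 17584 genes), and 0% of all genes tested passed it. At an unadjusted p under 0.05 there was 1 gene, Hcn2, lower in PLEA, where 5.86% of all tested genes reached that level (2.28% higher and 3.58% lower). DESeq2, run without the filter on low counts, called 0 of 35 channel genes and gave 2 of them no adjusted p. It called 0.114% of the 34187 genes that it fitted (2 higher and 37 lower). It had 2 of the 35 at an unadjusted p under 0.05, against 3.38% of all genes. Limma voom called 0 of 33 channel genes and 0% of all genes, with 1 channel gene at an unadjusted p under 0.05 against 5.47% of all genes. The median log2 fold change was 0.04 over the 33 genes and -0.01 over all tested genes, with 20 genes above 0 and 13 below, where 49% of all tested genes were above 0. The 95% intervals of 26 of the 33 genes (78.8%) lay inside a 2-fold change in either direction. Those of 14 (42.4%) lay inside a 1.5-fold change, against 69.7% and 43.5% of all tested genes. Among protein-coding genes at a mean of at least 10 CPM, 93.1% and 70.9% did so. Only 28 of the 33 genes were at that level, so these sets are not alike. Even 14 of 28 would be a smaller share than 70.9%, so on the 1.5-fold measure the intervals were wide for that level. Groups did not overlap for 2 of the 33 genes, Cacna1f on the higher and Hcn2 on the lower side, where 10.7% of all tested genes had groups apart (5.16% higher and 5.54% lower).

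**Figure D1:**
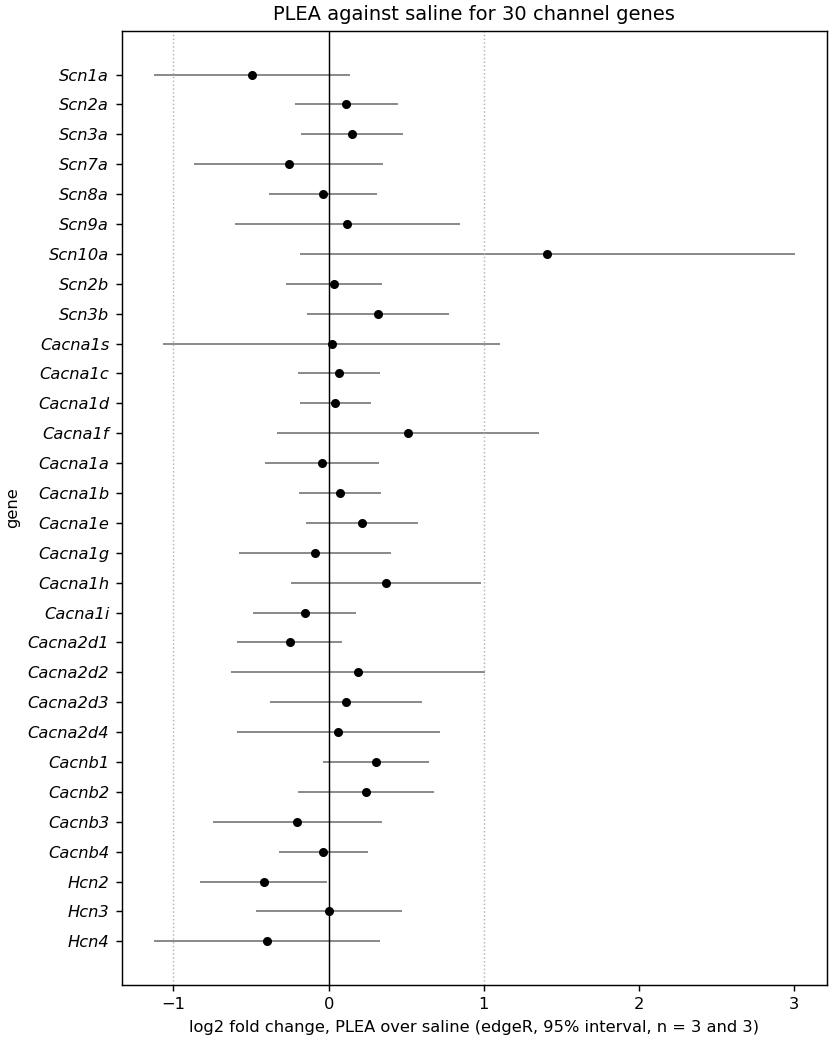
Log2 fold change of PLEA over saline for 30 of the tested channel genes, with 95% intervals from edgeR (n = 3 and 3). Dotted lines mark a 2-fold change. All intervals shown but that of Hcn2 include 0, and that of Scn10a is the widest.

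Among sodium channel pore genes, Scn2a, Scn8a and Scn1a, which encode the main channels of central axons, made up most of the family. On the scale of CPM per kilobase of deposited gene length, which allows genes to be compared, Scn2a averaged 39.0, Scn8a 28.5 and Scn1a 25.0 over the 6 libraries. Scn3a, the channel of immature neurons, averaged 6.84. Scn2a took 31.1% to 42.4% of the family's per-kilobase level and Scn8a 24.8% to 30.0%, so these ranges did not overlap, whereas Scn1a ranged from 19.7% to 35.4% and overlapped both.

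Scn1a, prominent in fast-spiking inhibitory neurons, was at 213, 491 and 272 CPM in the saline libraries (replicates 1, 2 and 3, an order kept throughout) and at 246, 225 and 222 CPM in the PLEA libraries. Saline replicate 2 was far above the other 5 libraries, and saline replicate 1 lay below all PLEA libraries. The log2 fold change was -0.49 (SE 0.28, adjusted p = 0.823, edgeR), and without saline replicate 2 it was -0.07. The share of Scn1a among pore genes was 27.0% ± 7.31 (SD, n = 3) after saline and 20.5% ± 0.681 (SD, n = 3) after PLEA, with every PLEA library below every saline library. The exact two-sided permutation p was 0.1, the smallest that 3 against 3 libraries can give (0.75 when adjusted over the 35 shares). Without saline replicate 2 the difference of -6.47 percentage points was -2.25.

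Scn2a, the channel of excitatory axons, was at 413, 498 and 535 CPM after saline and at 541, 558 and 465 CPM after PLEA. Its groups overlapped, with a log2 fold change of 0.11 (SE 0.15) and a 95% interval from -0.22 to 0.45. Scn8a, which sets the threshold at the initial segment and nodes, had -0.04 (interval -0.38 to 0.31) and Scn3a 0.15 (interval -0.18 to 0.48). For these 3 genes the intervals leave out a change of 1.5-fold in either direction.

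Scn10a, known as a channel of pain-sensing neurons, was low in this tissue and had the highest fold change of the 33 genes. It was at 0.880, 0.405 and 1.54 CPM after saline and at 0.578, 3.57 and 3.35 CPM after PLEA, from 7 to 63 counts per library. Its level was lowest in saline replicate 2 and highest in PLEA replicates 2 and 3, and the groups overlapped. The log2 fold change was 1.41 (SE 0.69, interval -0.18 to 3.00, adjusted p = 0.818, edgeR), and it was 1.94 without saline replicate 3 and 1.04 without saline replicate 2. In the deposited table Scn10a spans bases 119437522 to 119548388 of chromosome 9, and Scn11a lies 34.4 kb beyond it with 0 to 20 counts per library.

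The remaining pore genes were low in all libraries. Scn9a, a channel of sensory and olfactory neurons, ranged from 8.44 to 16.9 CPM over all libraries (log2 fold change 0.12, SE 0.32). Its span holds the opposite-strand gene Gm13629, whose counts averaged 50.5% of its own. Whole spans were compared, and whether exons overlap or reads of the 2 genes were mixed was not tested. Scn7a, a sodium-sensing relative of the family, ranged from 3.86 to 7.63 CPM (log2 fold change -0.26, SE 0.27). Scn4a, the skeletal muscle channel, had 0 to 4 counts per library. Scn3a, Scn2a, Scn1a, Scn9a and Scn7a lie on 1 stretch of chromosome 2, and their log2 fold changes did not share a sign.

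Of the sodium channel beta genes, Scn2b, whose product is linked to the pore by a disulfide bond, averaged 69.8 CPM per kilobase and Scn3b 28.3. Scn3b was at 113, 125 and 174 CPM after saline and at 144, 209.6 and 161 CPM after PLEA, with PLEA replicate 2 the highest library and groups that overlap. Log2 fold changes were 0.04 for Scn2b (SE 0.14) and 0.32 for Scn3b (SE 0.20, adjusted p = 0.833, edgeR). Without PLEA replicate 2 Scn3b was at 0.15.

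The 10 calcium channel pore genes summed to 1330 ± 110.0 CPM (SD, n = 3) after saline and 1416 ± 33.1 CPM (SD, n = 3) after PLEA. Cacna1e (R type) took 15.8% to 23.2% of the per-kilobase level, Cacna1b (N type) 17.3% to 19.5% and Cacna1a (P/Q type) 12.7% to 18.2%, ranges that overlap one another. Cacna1e was at 409, 381 and 538 CPM after saline and at 488, 549 and 507 CPM after PLEA. Saline replicate 3 lay among the PLEA libraries and the other saline libraries below them, with a log2 fold change of 0.22 (SE 0.16, interval -0.14 to 0.58). The log2 fold change was -0.04 (SE 0.16) for Cacna1a and 0.08 (SE 0.12) for Cacna1b, with both intervals inside a 1.5-fold change.

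Among T-type genes, Cacna1g, the channel of thalamic bursting, was at 99.6, 149 and 88.9 CPM after saline and at 122, 85.5 and 110.1 CPM after PLEA. Cacna1h was at 58.8, 60.5 and 112 CPM after saline and at 75.9, 111 and 111 CPM after PLEA. The 2 genes were ordered differently across libraries: saline replicate 2 was the highest for Cacna1g and among the 2 lowest for Cacna1h. Log2 fold changes were -0.09 for Cacna1g (SE 0.21), 0.37 for Cacna1h (SE 0.27) and -0.15 for Cacna1i (SE 0.15), all with groups that overlap. Without saline replicate 3 Cacna1h was at 0.72 (edgeR unadjusted p = 0.0066, adjusted p = 0.549), and without saline replicate 2 Cacna1g was at 0.16.

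The L-type genes Cacna1c and Cacna1d, which link depolarisation to gene expression, varied little between libraries. Cacna1d ranged from 84.5 to 92.3 CPM, the highest library 1.09 times the lowest, and Cacna1c from 114 to 139 CPM. Their log2 fold changes were 0.04 (SE 0.10) and 0.07 (SE 0.12), and both intervals lay inside a 1.5-fold change. Their spans hold opposite-strand genes, Dcp1a in Cacna1d with 32.4% of its counts and Dcp1b in Cacna1c with 15.9%. The retinal gene Cacna1f, with 9 to 22 counts per library, had every PLEA library above every saline library (log2 fold change 0.51, SE 0.37, adjusted p = 0.844, edgeR), and the skeletal muscle gene Cacna1s had 6 to 16 counts.

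**Figure D2:**
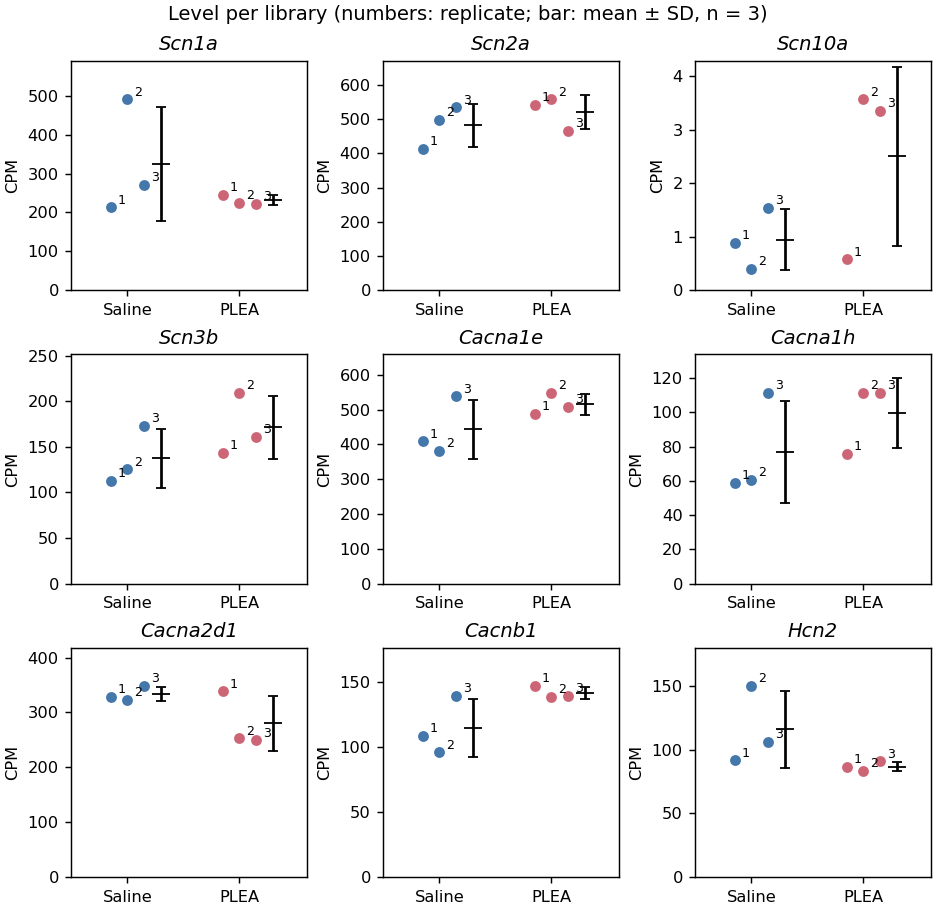
CPM of 9 channel genes in each library (points, numbered by replicate) with the mean and SD of each group (n = 3). Hcn2 is the 1 gene shown whose groups do not overlap, and saline replicate 2 is the highest library for Scn1a and Hcn2.

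Of the alpha2delta genes, Cacna2d1, the binding site of gabapentin, was at 329, 323 and 348 CPM after saline and at 339, 253 and 249 CPM after PLEA. PLEA replicates 2 and 3 lay below the saline range and PLEA replicate 1 within it (log2 fold change -0.25, SE 0.15, interval -0.59 to 0.09, adjusted p = 0.827, edgeR). Without PLEA replicate 1 it was at -0.42. Cacna2d2, known for its role in cerebellar and other inhibitory neurons, was at 49.4, 124 and 132 CPM after saline and at 79.3, 136 and 134 CPM after PLEA, so 1 library of each group was low. Its log2 fold change of 0.19 (SE 0.36) was -0.13 without saline replicate 1. Cacna2d3 had 0.11 (SE 0.21), and Cacna2d4 ranged from 2.72 to 4.76 CPM and shares its span with the opposite-strand gene Lrtm2, which averaged 1064 counts against its 62.

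Calcium channel beta genes differed in direction from one another. Cacnb1 was at 109, 95.8 and 139 CPM after saline and at 147, 139 and 139 CPM after PLEA. Its PLEA libraries were close together, with saline replicate 3 within their range and the other saline libraries below. The log2 fold change was 0.31 (SE 0.15, unadjusted p = 0.0729, adjusted p = 0.818, edgeR), and 0.19 without saline replicate 2. Cacnb1 took 23.8% ± 3.10 (SD, n = 3) of the beta genes' per-kilobase level in saline and 29.4% ± 1.98 (SD, n = 3) after PLEA, an exact two-sided permutation p of 0.2. Cacnb3 ranged from 111 to 197 CPM after saline and from 110.0 to 175 CPM after PLEA, with -0.20 (SE 0.24). Cacnb2 had 0.24 (SE 0.19), and Cacnb4, altered in the lethargic mouse, had -0.03 (SE 0.13) with an interval inside a 1.5-fold change.

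**Figure D3:**
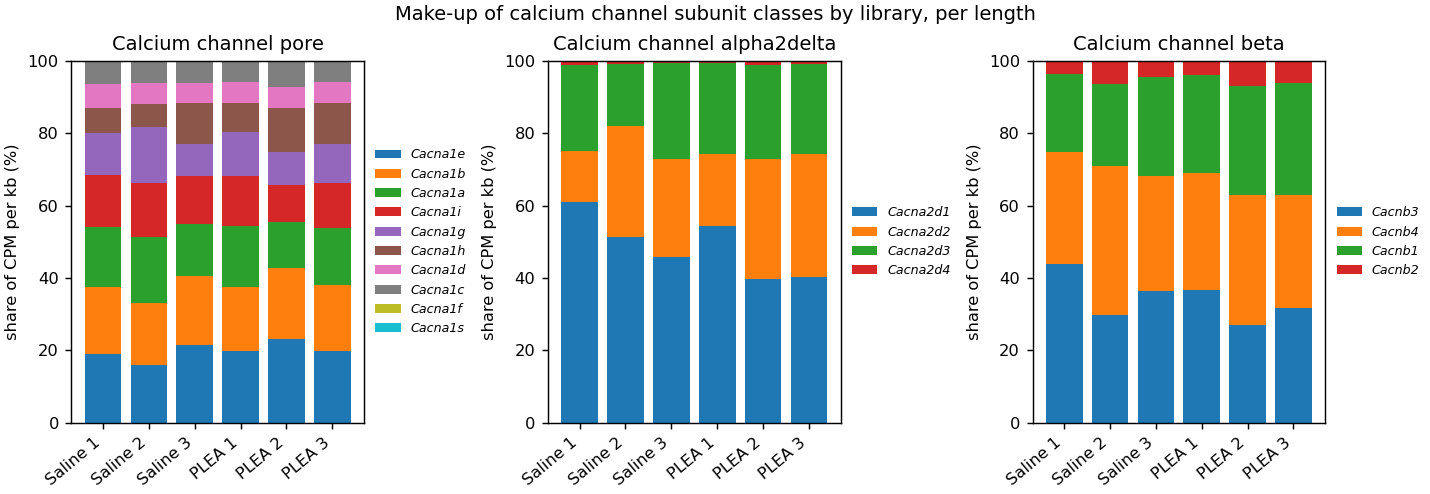
Share of each calcium channel gene in the summed CPM per kilobase of its subunit class, in percent, for each library (pore, alpha2delta and beta classes). Cacna1e holds 15.8% to 23.2% of the pore class, and Cacnb1 averages 23.8% of the beta class after saline and 29.4% after PLEA.

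Hcn2 held the smallest p of the 33 genes. Hcn2, broadly expressed and abundant in thalamus, was at 91.9, 150.2 and 106 CPM after saline and at 86.4, 83.3 and 90.8 CPM after PLEA. All PLEA libraries lay below all saline libraries, with a narrow gap between PLEA replicate 3 and saline replicate 1. The log2 fold change was -0.42 (SE 0.18, interval -0.83 to -0.01, unadjusted p = 0.0462, adjusted p = 0.818, edgeR), and -0.19 without saline replicate 2. In the deposited table Hcn2 spans bases 79552468 to 79571942 of chromosome 10 on the plus strand. Hcn4, the pacemaker channel, ranged from 6.22 to 15.8 CPM after saline and from 7.94 to 10.00 CPM after PLEA (log2 fold change -0.39, SE 0.32), and Hcn3 had 0.0025 (SE 0.20). The Hcn4 value was -0.11 without saline replicate 3 and -0.69 without saline replicate 1.

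Levels were also set against the summed per-kilobase level of the HCN family. The Hcn3 share was 8.58% ± 1.43 (SD, n = 3) after saline and 10.8% ± 0.142 (SD, n = 3) after PLEA, with every PLEA library above every saline library (exact two-sided permutation p = 0.1, adjusted 0.75 over 35 shares). The level of Hcn3 itself averaged 17.5 CPM in both groups (log2 fold change 0.0025), while that of Hcn2, the largest part of the family, had -0.42. Of the 35 shares, those of Scn1a and Hcn3 were the 2 with groups apart. By level, 10.7% of all tested genes had groups apart.

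Differences between libraries of 1 group were often wider than those between groups. Of the 33 tested genes, 15 were lowest in saline replicate 1, the library highest in microglial, astrocyte and endothelial markers. Another 9 were highest in saline replicate 2 and 12 in PLEA replicate 2, with some genes in more than 1 of these counts. Over all tested genes these libraries were the lowest or highest for 21.7%, 21.9% and 19.6%. Those highest in saline replicate 2 took in Scn1a, Scn8a, Cacna1a, Cacna1g, Cacna1i, Hcn2 and Hcn3. Those highest in PLEA replicate 2 included Scn2a, Scn3a, Scn10a, Scn3b and Cacna1e. The SD of log2 CPM was smaller in PLEA than in saline for 21 of the 33 genes, where 59.6% of all tested genes had the smaller SD in PLEA.

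**Figure D4:**
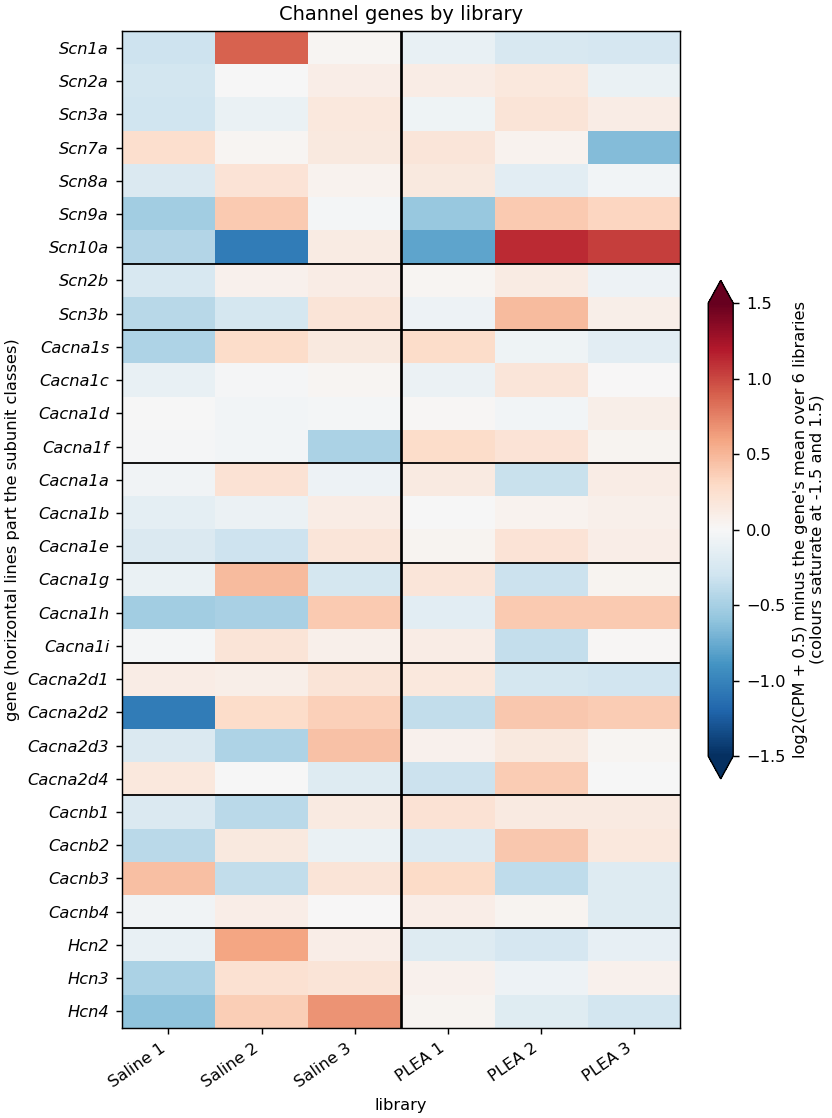
Heat map of log2(CPM + 0.5) minus the gene's mean over the 6 libraries, for 30 channel genes (rows, grouped by subunit class) and 6 libraries (columns). Scn1a and Hcn2 are highest in saline replicate 2, where Scn10a is lowest.

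Some channel genes had their highest or lowest level in the libraries where markers of neighbouring brain regions did, and whether these cells have a part in the channel values was not tested. Thalamic markers, 5 genes, summed to 543 CPM after saline replicate 2 and to 151 to 185 CPM in the other 5 libraries. In that library Slc17a6, a glutamate transporter gene of subcortical neurons, was at 284 CPM against 22.4 to 37.8 CPM elsewhere, and Tcf7l2 at 79.5 against 5.20 to 16.3, while Prkcd was at its lowest, 9.36. Of the 33 channel genes 9 were also highest there, Scn1a, Cacna1g and Hcn2 among them, as were 21.9% of all tested genes. In each marker covariate, the level was the mean log2(CPM + 0.5) of the listed genes, not their sum. The thalamic marker level was used as a covariate, an alternative chosen after seeing the data. Log2 fold changes were then -0.12 for Scn1a, 0.12 for Cacna1g and -0.22 for Hcn2. Without saline replicate 2 they were -0.07, 0.16 and -0.19. The summed markers were high in that library alone, and this fit cannot tell thalamic markers from any other trait of that library. In bulk tissue, fewer cells of a type and less RNA per cell cannot be told apart.

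Striatal markers, 9 genes, summed to 968, 240 and 2283 CPM in the saline libraries and to 1046, 2248 and 1946 CPM in the PLEA libraries. Scn10a and Cacna1h were, like these markers, higher in saline replicate 3 and PLEA replicates 2 and 3 than in the remaining libraries. With the striatal marker level as a covariate, log2 fold changes were 0.68 for Scn10a, 0.12 for Cacna1h and 0.17 for Scn3b, none of them past the threshold in edgeR. The neuron marker level as a covariate left Hcn2 at -0.34.

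**Figure D5:**
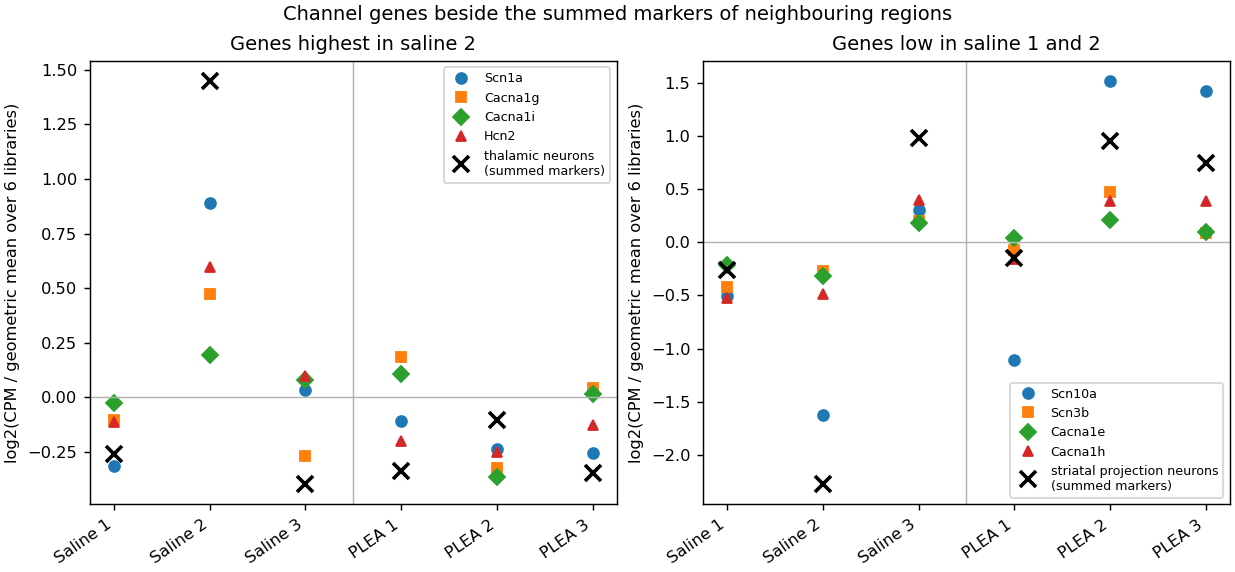
Level of 4 channel genes and of a summed marker list in each library, as log2 of CPM over the geometric mean of the 6 libraries. Left, genes that are highest in saline replicate 2 beside thalamic markers. Right, genes that are low in saline replicates 1 and 2 beside striatal markers. PLEA replicate 1 is also low for Scn10a, Cacna1h and the striatal markers.

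Genes listed as partners of these channels gave 0 calls in edgeR. At an unadjusted p under 0.05, 2.28% of all tested genes were higher and 3.58% lower. At that level, of 13 tested genes listed for sodium channel binding or the initial segment, none was lower and 1 was higher. That gene, Scn4b, a beta subunit abundant in striatum, was at 219, 165 and 203 CPM after saline and at 206, 439 and 328 CPM after PLEA (log2 fold change 0.73, SE 0.26, adjusted p = 0.818, edgeR), with PLEA replicate 1 within the saline range. Fgf13, an intracellular modulator of sodium channels, had -0.38 (SE 0.18) and Ank2, an axonal scaffold, -0.23 (SE 0.14). The median was -0.07 over this list.

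Of 15 genes for calcium channel partners and release sites, none was higher and 1 was lower at an unadjusted p under 0.05. Over all tested genes 2.28% were higher and 3.58% lower at that level. The median log2 fold change of the list was -0.01. Cacng7, which encodes a transmembrane partner of AMPA receptors, was at 163, 184 and 146 CPM after saline and at 128, 117 and 146 CPM after PLEA (log2 fold change -0.34, SE 0.14, adjusted p = 0.818, edgeR). Saline replicate 3 and PLEA replicate 3 were level. Cacng8 had 0.23 (SE 0.18) and the release-site scaffold Rimbp2 0.20 (SE 0.16). Of 4 genes listed beside HCN channels, 3 were tested and showed smaller values. The other, Kcne2, did not pass the filter on low counts, with 4 to 33 counts per library. It averaged 0.378 CPM after saline and 1.13 CPM after PLEA, with groups that overlap. Pex5l, which encodes the trafficking subunit TRIP8b, had -0.10 (SE 0.18) and Kctd3 0.10 (SE 0.12). That list also held Caprin1, not an established HCN subunit, at -0.08 (SE 0.13).

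The sodium leak channel, a relative without a voltage-triggered gate, was encoded by Nalcn at -0.15 (SE 0.17). Its scaffold gene Unc80 was at 498, 713 and 514 CPM after saline and at 468, 468 and 473 CPM after PLEA. The log2 fold change of Unc80 was -0.29 (SE 0.16, adjusted p = 0.819, edgeR), and saline replicate 2 was the highest library, as for Hcn2. The groups did not overlap, as in 10.7% of all tested genes. Unc79 had 0.15 (SE 0.12).

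The sequence before the transcription start was compared for 25 channel genes, which had 35 windows of 250 bases in the RefSeq table (GRCm38.p6). The median GC content was 56.0% over these windows and 52.4% over all 32851 windows of that length. A window of each of 4 genes is shown because Hcn2, Cacna1i and Scn8a were among the 9 genes highest in saline replicate 2 and Scn2a was highest in PLEA replicate 2. Each is on the plus strand, holds no annotated exon and is written 5′ to 3′ up to the base before the start. Capitals mark matches on either strand to the GC box GGGCGG, the CCAAT box, the TATA box spelled TATAAA, the cyclic AMP response core spelled TGACG and the E-box spelled CANNTG, and neighbouring matches can run together.
Hcn2 at chr10:79716384-79716633: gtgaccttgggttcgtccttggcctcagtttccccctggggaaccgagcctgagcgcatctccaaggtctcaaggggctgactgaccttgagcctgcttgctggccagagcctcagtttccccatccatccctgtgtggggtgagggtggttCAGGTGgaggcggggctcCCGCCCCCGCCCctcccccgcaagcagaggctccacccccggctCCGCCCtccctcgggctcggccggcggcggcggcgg
Cacna1i at chr15:80286988-80287237: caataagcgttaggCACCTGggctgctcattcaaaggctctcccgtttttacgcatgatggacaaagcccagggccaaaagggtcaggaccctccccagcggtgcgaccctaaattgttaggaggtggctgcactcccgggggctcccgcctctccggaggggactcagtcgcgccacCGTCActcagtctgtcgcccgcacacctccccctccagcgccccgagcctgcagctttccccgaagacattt
Scn8a at chr15:100870395-100870644: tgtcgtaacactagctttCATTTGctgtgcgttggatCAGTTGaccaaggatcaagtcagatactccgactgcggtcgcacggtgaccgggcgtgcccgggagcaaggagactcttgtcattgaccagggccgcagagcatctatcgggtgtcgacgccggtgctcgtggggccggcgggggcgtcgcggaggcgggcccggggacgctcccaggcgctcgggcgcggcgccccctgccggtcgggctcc
Scn2a at chr2:65668436-65668685: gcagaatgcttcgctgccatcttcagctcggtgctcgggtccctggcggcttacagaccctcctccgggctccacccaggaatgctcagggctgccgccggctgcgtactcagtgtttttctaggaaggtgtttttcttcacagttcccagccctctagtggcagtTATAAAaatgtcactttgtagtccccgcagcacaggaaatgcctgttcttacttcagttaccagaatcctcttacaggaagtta

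The Hcn2 window was 70.4% G or C and held 3 GC boxes and 1 E-box. The Cacna1i window held 1 E-box and 1 TGACG match, and the Scn8a window, 68.0% G or C with 30 CpG pairs, held 2 E-boxes and no GC box. The Scn2a window was 53.2% G or C and held 1 TATAAA match. Of the 35 windows of channel genes, 15 held a GC box, 7 a CCAAT box, 2 a TATA box, 6 a cyclic AMP response core and 22 an E-box. Among all windows of that length 32.7%, 33.8%, 12.4%, 17.8% and 66.2% did so. Scn8a and Scn2a each have a second window in the table that is not printed. That of Scn8a held no motif of this list, and that of Scn2a, 29.6% G or C, held an E-box and no TATA box.

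Channel genes had long spans: a median of 112 kb for the 33 tested genes against 25.7 kb for all tested protein-coding genes, and a median deposited length of 9478 against 4535 bases. With a length offset in the fit, the log2 fold change of Hcn2 was -0.43.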

How the data were processed

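Raw counts of 6 libraries, as whole numbers without normalization, stand in a single table that the authors deposited together with each gene's length in bases. How reads were aligned and counted, and whether strand was used, is not given in the sources used here. Builds GRCm38 and mm10 appear in the submitters' processing notes, but 0 of 32 channel genes compared had start and end within 1000 bases of RefSeq's GRCm38.p6, so deposited coordinates carry no build here and were not joined to RefSeq sequences. Libraries were grouped by title. The test was the quasi-likelihood F test of edgeR 4.0.16 (R 4.3.3) on group alone, after filterByExpr and TMM scaling, adjusted by Benjamini-Hochberg over 17584 genes at a threshold of 0.05. The SE was derived from each log2 fold change and its F statistic, and intervals (95%) use it with the fit's degrees of freedom. Shares within a subunit class used CPM divided by deposited length and an exact permutation test over libraries.

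The channel genes, partner lists and marker lists were chosen with earlier results of these data known. Counts cover all channel genes, 30 tested ones were described singly and some are not reported here, and the 3 genes of smallest p in each partner list were named. Alternatives were DESeq2 1.42.0, limma 3.58.1 (voom), other scaling factors and filters, a length offset, a replicate block, marker covariates and leaving out each library. The procedure was tested on simulated counts. At 16810448 to 17516434 counts per library, levels near 1 CPM rest on about 17 counts. No 2 libraries agreed within sampling noise, and each was counted as 1 sample.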

Additional observations from a re-analysis of the deposited data

How the results depend on the processing

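No channel gene was called under any of 18 alternatives, and among the genes given singly the smallest adjusted p was 0.499 (Scn10a without PLEA replicate 1). Over all genes 2 were higher and 37 lower in DESeq2, while an unfiltered edgeR fit gave 7 higher with 31 lower, and leaving out 1 library gave 0 to 0 higher and 0 to 1 lower; the cause was not tested. The median over the channel genes ranged from -0.041 to 0.087 when 1 library was left out. With the replicate number as a block, edgeR called 0 channel genes, with 2 higher at an unadjusted p under 0.05, Cacna1h at 0.41 among them, and 0 lower, where 2.70% and 5.07% of all genes were. Same-numbered libraries correlated at 0.373, 0.173 and -0.0176 in their deviations from the group means. Not every library correlated best with its own number. With 3 libraries per group these values cannot settle whether same-numbered libraries share more than the number.

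Of the 30 log2 fold changes given singly, 17 kept their sign in every setting, those of Scn1a, Scn10a, Cacnb1 and Hcn2 among them. Signs turned for Hcn3 with RLE factors (-0.0012), DESeq2 (-0.0078) and no filter (-0.0088). With the length offset Scn8a was at 0.017, Cacna1a at 0.0033 and Cacnb4 at 0.0071. With the neuron covariate Scn8a was at 0.047, Cacna1a at 0.0026, Cacna2d4 at -0.081 and Cacnb4 at 0.00022. With the striatal covariate Scn8a was at 0.048, Cacna1a at 0.077, Cacna1g at 0.19, Cacna2d3 at -0.081 and Cacnb4 at 0.014. With the thalamic covariate, added after seeing the data, these genes were at 0.033, 0.017, 0.12, -0.030 and 0.0072. Leaving out 1 library turned or moved by over 1.5 times the log2 fold change of 29 of the 30 genes, and gave ranges across 0 for Scn9a (-0.083 to 0.38), Scn2b (-0.058 to 0.087), Cacna1s (-0.29 to 0.28), Cacna2d2 (-0.13 to 0.41), Cacnb3 (-0.43 to 0.0026), Hcn3 (-0.19 to 0.12), Scn8a (-0.13 to 0.060), Cacna1a (-0.13 to 0.095), Cacna1g (-0.24 to 0.16), Cacna2d3 (-0.065 to 0.41), Cacnb4 (-0.10 to 0.051), Cacna2d4 (-0.17 to 0.22) and Cacna1c (-0.012 to 0.12). Without saline replicate 3, 7 channel genes were higher, and 1 was lower, at an unadjusted p under 0.05, where 3.27% and 4.93% of all genes were, and the adjusted p of channel genes was 0.549 or more. Scn4a, Scn11a, Cacna1s, Cacna1f and Scn10a had under 70 counts in every library, which limits what their values can show.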
